A study of Mus musculus with 2 samples.

Results

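Sp110, Sp140 and Sp100 encode the Speckled Protein family of nuclear body proteins, and they are described here together with Pml as their reference. The 4 genes were taken by symbol from a feature table of 55415 entries, and all 4 were present. Mouse embryonic stem cells with a GFP reporter driven by MERVL, an endogenous retrovirus that is active in the 2-cell embryo, were profiled as single cells in 2 libraries. One library was labelled MERVL GFP positive and the other MERVL GFP negative, so each group had 1 library. Both groups were the same mES cell line, which also carried H2B-mIFP for following cells. No treatment, time point or genotype difference was given, and the labels do not say how the reporter was used to part the cells. The question named by the study was the fate of cells in the 2C-like state.

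The positive library held 4596 cells after filtering, with 138303336 UMIs (molecule counts) and a median of 29554.5 UMIs per cell. The negative library held 3832 cells, with 156406894 UMIs and a median of 39099.5 UMIs per cell. The median mitochondrial share was 2.56% and 1.60%. The reporter transcript followed the labels, at 205 CPM (UMIs of a gene scaled to the total of the library) in the positive library and 0.454 CPM in the negative library. Embryonic stem markers were present in both, with 10 of 10 listed genes above 50 UMIs and a summed level of 14960 against 14490 CPM. The libraries shared 3 cell barcodes, which held 4 Sp110 UMIs and 0 Sp140 UMIs in the positive library and 0 of each in the negative library. Each group was a library of its own, with no replicate. Batch and group therefore cannot be told apart, no test between the groups was possible, and no difference below has a replicate check. Intervals are 95% intervals for counting error only. Fewer cells expressing a gene and less RNA per cell cannot be told apart in a summed level, so the share of cells with a UMI is given beside it.

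PML nuclear bodies are small protein assemblies in the nucleus that form on the PML protein and recruit partners through SUMO, a small protein modifier. Sp100 is a classic constituent of these bodies, and Sp110 and Sp140 are its relatives, with a SAND domain of the kind that binds DNA. The family and Pml are known as interferon-inducible genes. In immune cells Sp110 and Sp140 bear on resistance to bacterial infection, and Sp140 on silencing of genes in macrophages. The 2C-like state is a rare condition of embryonic stem cells in which MERVL, the Zscan4 genes and other transcripts of the 2-cell embryo are switched on.

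The 3 family genes are neighbours on mouse chromosome 1 in GRCm38 (mm10), by the GENCODE vM21 annotation. Sp110 (ENSMUSG00000070034) lies at chr1:85576899-85598817 on the minus strand. Sp140 (ENSMUSG00000070031) lies at chr1:85600378-85645037 on the plus strand. The annotated starts of both are 1561 bases apart, and the genes point away from each other. Sp100 (ENSMUSG00000026222) lies at chr1:85649988-85709998 on the plus strand and starts 4951 bases beyond the end of Sp140. Pml (ENSMUSG00000036986) lies on another chromosome, at chr9:58218076-58249786 on the minus strand. All 4 are protein-coding.

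Sequence upstream of an annotated start is shown for Sp110 and Sp100 because these near neighbours had very different levels in the same cells. Both stretches are from RefSeq (GRCm38.p6), are read 5′ to 3′ on the strand of the gene. The Sp110 stretch is chr1:85598818-85599060 on the minus strand and ends next to the first GENCODE exon. The Sp100 stretch is chr1:85649738-85649956 on the plus strand and ends with the bases it shares with Sp110. Capitals mark, on the opposite strand, GAAA repeated after a gap of 3 bases, an arrangement like that bound by interferon regulatory factors.
Sp110: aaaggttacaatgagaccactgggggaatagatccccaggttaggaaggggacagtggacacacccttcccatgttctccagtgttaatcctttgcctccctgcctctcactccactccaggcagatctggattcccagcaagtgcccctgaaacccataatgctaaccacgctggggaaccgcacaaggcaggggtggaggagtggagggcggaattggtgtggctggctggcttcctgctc
Sp100: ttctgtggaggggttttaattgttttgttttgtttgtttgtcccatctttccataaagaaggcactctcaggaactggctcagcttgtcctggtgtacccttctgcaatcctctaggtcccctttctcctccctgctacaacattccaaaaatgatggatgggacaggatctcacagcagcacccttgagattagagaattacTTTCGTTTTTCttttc

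Around their starts Sp110 and Sp100 shared a stretch of 18 bases with 17 matches, in which the lower-case letter marks the mismatch.
Sp110: ACTTTCaTTTTTCTTTTC
Sp100: ACTTTCgTTTTTCTTTTC
The RefSeq promoter windows used here gave a pair of start sites for each of these genes, and the Sp110 sites differ from the GENCODE start above. The RefSeq gene records reach beyond these sites, to base 85610850 for Sp110 and back to base 85649948 for Sp100. Both stretches printed above therefore lie at least in part within a RefSeq gene record. With the RefSeq start site counted as 0, this stretch lay at +7 to +24 of the Sp110 start at base 85598810 and at -49 to -32 of the Sp100 start at base 85649988. From the other Sp100 start it lay at -75 to -58, and the window of the other Sp110 start held no match to any motif searched. It holds the paired GAAA match of each gene. The gap of 3 was chosen after the sequences were read, and 2.75% of 32851 RefSeq promoter windows of 300 bases held it on either strand. The other letters searched on both strands were GAAA repeated after a gap of 2 bases (3.44% of windows), TTC and GAA with 3 bases between them, of the STAT type (8.30%), TGCACAC of the Zscan4 type (4.40%), and TGATT and AATCA with 1 base between them, of the Dux type (0.0335%). Matches of different motifs may overlap. TGCACAC matched once in the Pml window, and none of the motifs matched in the Sp140 window. These matches are letters in a window and not measured sites.

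Sp110 and Sp140 were far higher in the positive library than in the negative library, Sp100 was almost undetected in both, and Pml differed far less. Sp110 had 11028 UMIs (79.7 CPM, 78.3 to 81.2) in the positive and 16 UMIs (0.102 CPM, 0.0585 to 0.166) in the negative library. The ratio was 779 (480 to 1364). Sp140 had 8674 UMIs (62.7 CPM, 61.4 to 64.1) in the positive and 45 UMIs (0.288 CPM, 0.210 to 0.385) in the negative library. Its ratio was 218 (163 to 299). Pml had 2949 UMIs, or 21.3 CPM, in the positive library and 4090 UMIs, or 26.1 CPM, in the negative library. The Pml ratio was 0.815 (0.777 to 0.855), a small difference in the opposite direction.

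Genes were called by size alone, when they had at least 10 CPM in a group, at least 50 UMIs in total and a ratio of CPM + 1 of at least 4. By this rule 2 of the 3 members that could be judged were higher (Sp110 and Sp140) and 0 were lower, against 3% of 8042 genes called higher and 0.0124% called lower. The log2 ratios of CPM + 1 were 6.19 for Sp110, 5.63 for Sp140 and -0.28 for Pml, and the median over all judged genes was 0.14. The ratio of Pml was lower still under TMM scaling, at -0.56 on the log2 scale, where the median of all genes was -0.14. Sp100 was too sparse for the rule.

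**Figure D1:**
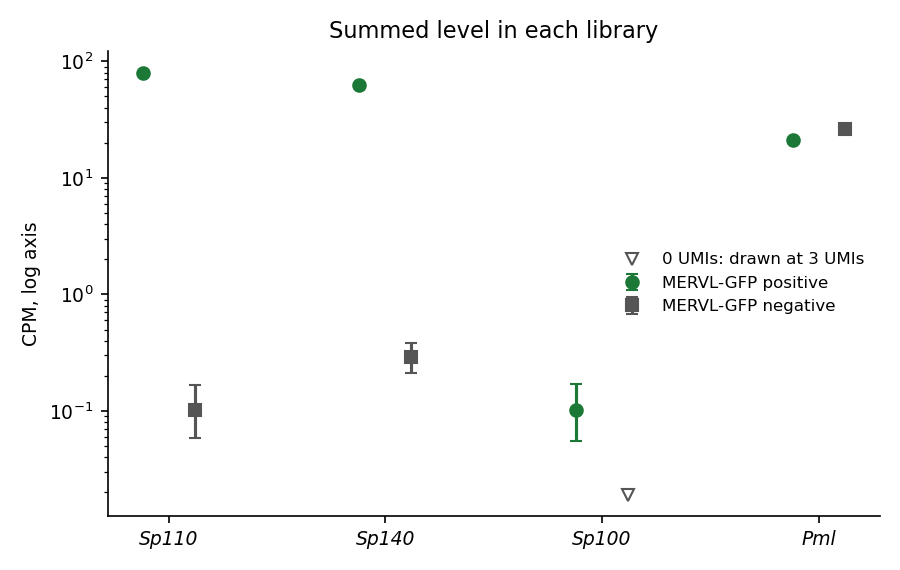
Summed level of each gene in CPM (vertical log axis) in the positive library (circles) and the negative library (squares), with 95% Poisson intervals; the open triangle marks 0 UMIs and is drawn at the level of 3 UMIs. Sp110 and Sp140 are separated by more than 100-fold, the Pml points lie close together, and Sp100 is near the floor.

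The difference was also one of how many cells held the transcripts. Each cell was thinned to 10000 UMIs, which left 4402 positive-library and 3824 negative-library cells. Sp110 was then detected in 27.2% of positive-library cells (25.9 to 28.5, exact binomial) and in 0.0785% of negative-library cells (0.0162 to 0.229). Sp140 was detected in 23.0% (21.7 to 24.2) and 0.314% (0.162 to 0.548). Pml was detected in 17.4% and 22.4%. Without thinning the shares were 45.5% and 0.391% for Sp110, 39.0% and 1.12% for Sp140, and 40.7% and 59.6% for Pml. Both family genes were thus seen in a minority of thinned positive-library cells.

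Counts of Sp110 and Sp140 are uncertain in one respect, because both genes have near-identical copies. Of the 50-base words in the longest Sp110 transcript, 53.8% also occurred in transcripts of other genes, nearly all of them in Gm16026, an annotated transcribed pseudogene at chr1:85266698-85285491. In the last 500 positions of Sp110 the share was 55.8%. For Sp140 it was 63.1% in all and 46.8% at the 3′ end, with Arhgef12 holding that whole 3′ share. For Sp100 it was 8.67% in all and 0% at the 3′ end, and for Pml 0%. How reads matching several genes were counted is not given in the sources used here. Gm16026 itself had 61.4 CPM in the positive library and 0.0192 CPM in the negative library, so its record, like that of Sp110, was high in one library and near 0 in the other. Arhgef12 had 37.9 and 23.8 CPM, and Sp140 stood at 0.288 CPM in the library where Arhgef12 had 3717 UMIs. RefSeq draws Sp110 and Sp140 as overlapping by 23360 bases on opposite strands, and without stated strand handling reads from that overlap cannot be told apart.

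Within the positive library Sp110 and Sp140 followed the Zscan4 family, whose proteins mark the 2C-like state. Cells were classed by their thinned UMIs of 9 Zscan4 symbols as 0 (1457 cells), 1 to 4 (1848), 5 to 19 (731) and 20 or more (366 cells, called Zscan4-high). Across these classes Sp110 stood at 29.1, 52.5, 184 and 284 CPM. Sp140 stood at 26.1, 44.7, 149 and 194 CPM. Both were thus higher in each class than in the one before it. Zscan4-high cells exceeded Zscan4-zero cells by 9.76-fold for Sp110 (9.13 to 10.4) and 7.45-fold for Sp140 (6.91 to 8.03). Sp110 was detected in 12.5%, 23.1%, 48.7% and 63.7% of thinned cells of the 4 classes, and Sp140 in 12.1%, 18.8%, 41.3% and 50.5%. Even among the 366 Zscan4-high cells, 94 had no UMI of either gene after thinning.

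Pml ran the other way, at 25.0, 21.4, 14.0 and 16.4 CPM across the same classes. Its ratio between Zscan4-high and Zscan4-zero cells was 0.656 (0.542 to 0.789), and the lowest value was in the class of 5 to 19 Zscan4 UMIs. Embryonic stem markers were lower in the same cells, with a sum of 8295 against 16067.5 CPM, a median log2 ratio of -1.17 and 10 of 10 below 0, though 0 were past the size rule. Primitive endoderm markers summed to 387 against 824 CPM, with 10 of 10 below 0 and 2 of 7 judged past the rule as lower. Without cells holding 5 or more thinned UMIs of 7 endoderm genes, a split described below, the Pml ratio was 0.590. The part of these markers' cells in the Pml difference was not tested further. In this comparison 2 members (Sp110 and Sp140) were past the size rule as higher and 0 as lower, against 4.77% of 8518 genes called higher and 0.399% called lower. The log2 ratios were 3.24, 2.85 and -0.58 for Sp110, Sp140 and Pml, beside a median of -0.11 over all judged genes.

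Cells classed by GFP gave the same order. With GFP at 0, 1, 2 to 4 and 5 or more thinned UMIs (1711, 766, 1148 and 777 cells), Sp110 stood at 19.5, 44.9, 97.6 and 240 CPM. Sp140 stood at 17.9, 48.1, 89.0 and 155 CPM. Pml stood at 25.6, 21.9, 17.9 and 14.6 CPM. The highest GFP class exceeded the class without GFP by 12.3-fold for Sp110 (11.5 to 13.1) and 8.69-fold for Sp140 (8.09 to 9.33), and for Pml the ratio was 0.569. Here 3.01% of 8204 genes were called higher and 0% lower, and Sp110 and Sp140 were among those called higher.

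**Figure D2:**
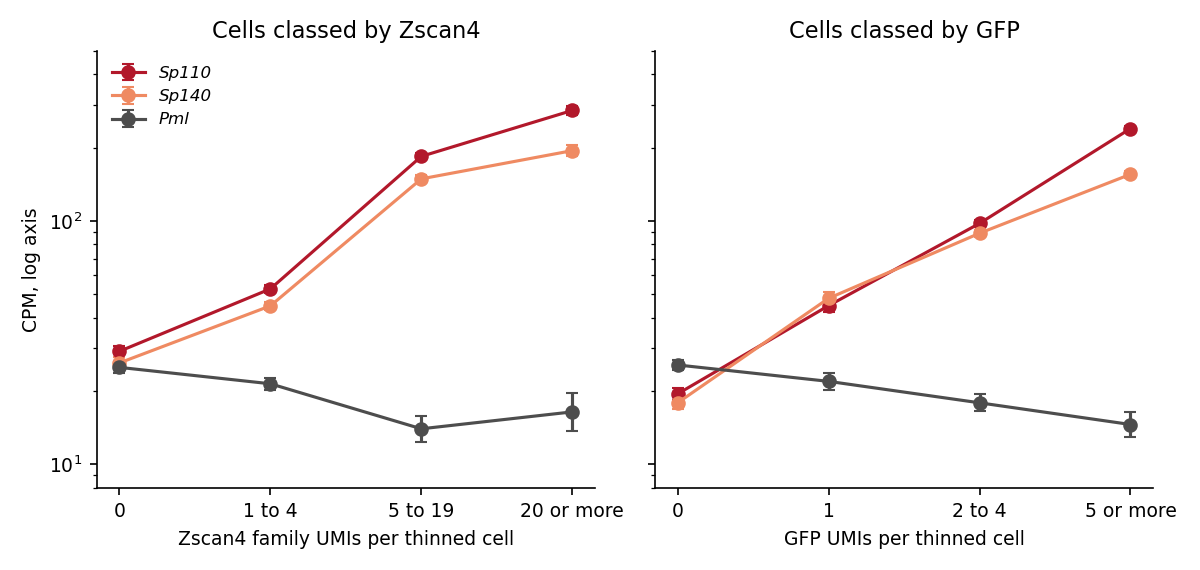
CPM (log axis) of Sp110, Sp140 and Pml in positive-library cells classed by thinned UMIs of the Zscan4 family (left) and of GFP (right), with 95% Poisson intervals. Sp110 and Sp140 climb from class to class to 284 and 194 CPM at the Zscan4 end and 240 and 155 CPM at the GFP end, while Pml stays between 14.0 and 25.6 CPM.

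Crossing the classings separated the markers from each other. In the 822 cells with neither marker after thinning, Sp110 stood at 9.95 CPM and Sp140 at 9.63 CPM. In the 889 cells with Zscan4 alone, the levels were 28.6 and 25.8 CPM. In the 635 cells with GFP alone, they were 54.4 and 47.8 CPM. In the 2056 cells with both, they were 140 and 109 CPM. The shares of thinned cells with Sp110 were 8.15%, 18.6%, 18.1% and 41.3% in this order, and with Sp140 6.81%, 14.4%, 19.1% and 34.3%. Cells with GFP alone thus had a higher Sp110 level than cells with Zscan4 alone, but not a higher share of cells with Sp110. In the GFP-alone cells 10 cells held 51.8% of the Sp110 UMIs, and the level was 43.6 CPM without the highest of them. Pml was at 27.4, 23.8, 21.9 and 17.0 CPM in the same order.

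The cells with neither marker still stood above the negative library. Sp110 was 97.2-fold higher there than in the whole negative library (58.8 to 173), and Sp140 33.5-fold (24.3 to 47.0), while the Pml ratio was 1.05 (0.968 to 1.13). Before thinning these cells also held 41.7 CPM of Zscan4 and 26.0 CPM of GFP, against 0.812 and 0.454 CPM in the negative library. The part of free RNA and of low expression in these values was not tested.

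Sequencing depth moved with the classes. The median cell had 33100, 31149.5, 25419 and 19375 UMIs from the lowest to the highest Zscan4 class, and the median mitochondrial share was 2.35%, 2.46%, 2.83% and 3.34%. The levels of Sp110 and Sp140 were higher in shallower cells within the Zscan4-zero class too. Among Zscan4-zero cells Sp110 stood at 76.1 CPM in cells of 10000 to 20000 UMIs, 69.3 CPM at 20000 to 30000, 15.1 CPM at 30000 to 40000 and 13.4 CPM at 40000 or more. Sp140 stood at 76.1, 44.2, 21.7 and 13.8 CPM in the same bins. Few cells carried the level at 20000 to 30000 UMIs, where 10 of 444 cells held 72.9% of the Sp110 UMIs and 58.0% of the Sp140 UMIs, and where Sp110 was at 49.4 CPM without its highest cell. Over all thinned cells GFP likewise went from 397 CPM in the shallowest bin to 136 CPM in the deepest, while Pml went from 18.5 to 23.2 CPM.

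Among cells of 15000 to 30000 UMIs, 257 Zscan4-high and 501 Zscan4-zero cells remained, and the Zscan4 contrast had the same direction with smaller ratios. They were 3.88 for Sp110, 4.21 for Sp140 and 0.609 for Pml. On the log2 scale of CPM + 1 these were 1.94 for Sp110, under the 2 that the size rule asks, and 2.05 for Sp140, just over it. The Sp110 value rested on few cells. In 1 Zscan4-zero cell there were 230 Sp110 UMIs and 60 Sp140 UMIs out of 21219, the most of the class for each gene. Without that cell the ratios at this depth were 5.24 for Sp110 and 4.69 for Sp140, or 2.37 and 2.20 on the log2 scale, both past the size rule. The 10 highest Zscan4-zero cells at this depth held 66.5% of the Sp110 UMIs. Over all depths the same cell moved the Zscan4-zero level of Sp110 from 29.1 to 24.4 CPM and the ratio from 9.76 to 11.6, and the 10 highest cells held 41.7%. The part of depth in the class differences was not tested further.

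**Figure D3:**
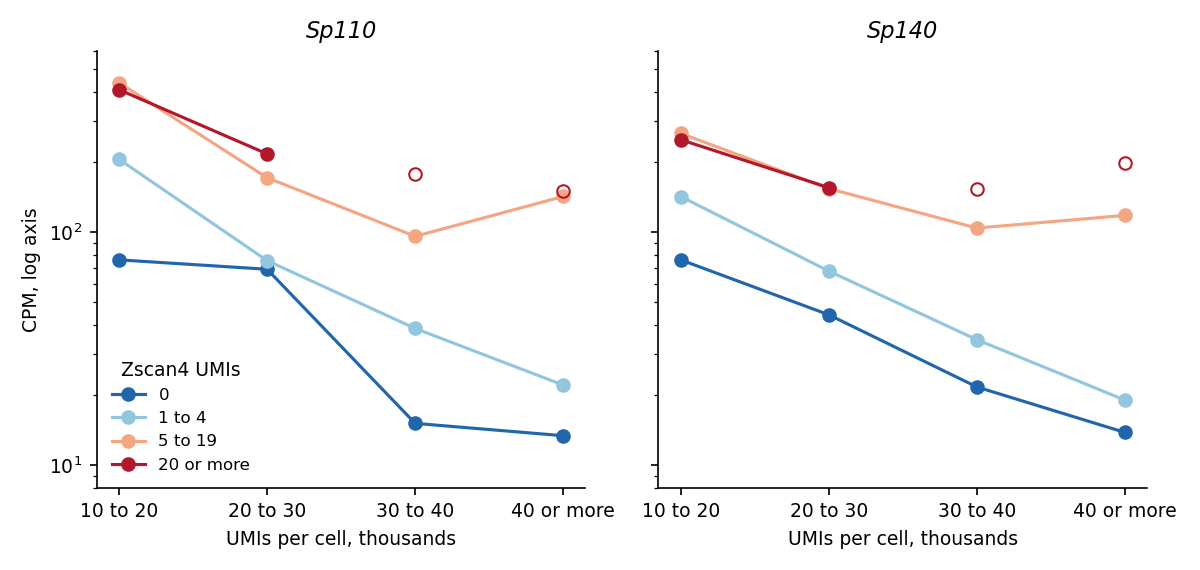
CPM (log axis) of Sp110 (left) and Sp140 (right) in positive-library cells binned by total UMIs per cell, with a colour for each Zscan4 class; open points have under 50 cells. Levels are higher in shallow cells in most classes, and the classes with 5 or more Zscan4 UMIs lie above the Zscan4-zero class in every bin.

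Sp110 and Sp140 were often found in the same cells. Of 4402 thinned cells, 590 held both, 607 held Sp110 alone, 421 held Sp140 alone and 2784 held neither. Sp140 was detected in 49.3% of cells with Sp110 and in 13.1% of cells without it. Over these cells Pearson's r of log counts was 0.57 and Spearman's coefficient 0.46, as a description of cells that share 1 library and differ in state. Within single Zscan4 classes r was 0.50 to 0.53. In Zscan4-zero cells 3.71% held both genes, where the product of their shares is 1.52%. Pml showed no such relation, with r of -0.067 to Sp110 and -0.084 to Sp140.

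Transcripts of both genes were concentrated in few cells. The 10% of cells with the most UMIs of a gene held 74.4% of Sp110, 77.7% of Sp140 and 44.3% of Pml. Only 169 cells held 50% of the Sp110 UMIs, 168 held 50% of the Sp140 UMIs and 545 held 50% of the Pml UMIs. The highest cell had 230 UMIs of Sp110, 72 of Sp140 and 13 of Pml. Of the 259 cells with 5 or more thinned Sp110 UMIs, 92.7% had a Zscan4 UMI and 94.6% a GFP UMI. Of the 245 cells with 5 or more thinned Sp140 UMIs, 89.8% had a Zscan4 UMI and 94.3% a GFP UMI.

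The share of transcripts lying in Zscan4-high cells was lower for the family genes than for most of the listed 2C genes. These shares were taken over the 4402 positive-library cells deep enough to be thinned, so the 194 shallower cells were left out. Zscan4-high cells held 5.62% of all UMIs of those cells. They held 20.9% of Sp110 UMIs, 17.7% of Sp140 UMIs and 4.32% of Pml UMIs. By comparison they held 54.0% of Zscan4 UMIs by construction, 53.3% of Gm4340, 46.5% of AF067061, 45.3% of Gm21761 and 40.4% of Tcstv3, all 2C-associated transcripts. Zfp352, a zinc finger gene of the early embryo, stood next to the members at 18.05%, and GFP was at 13.1%. No test of these differences between genes was made.

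**Figure D4:**
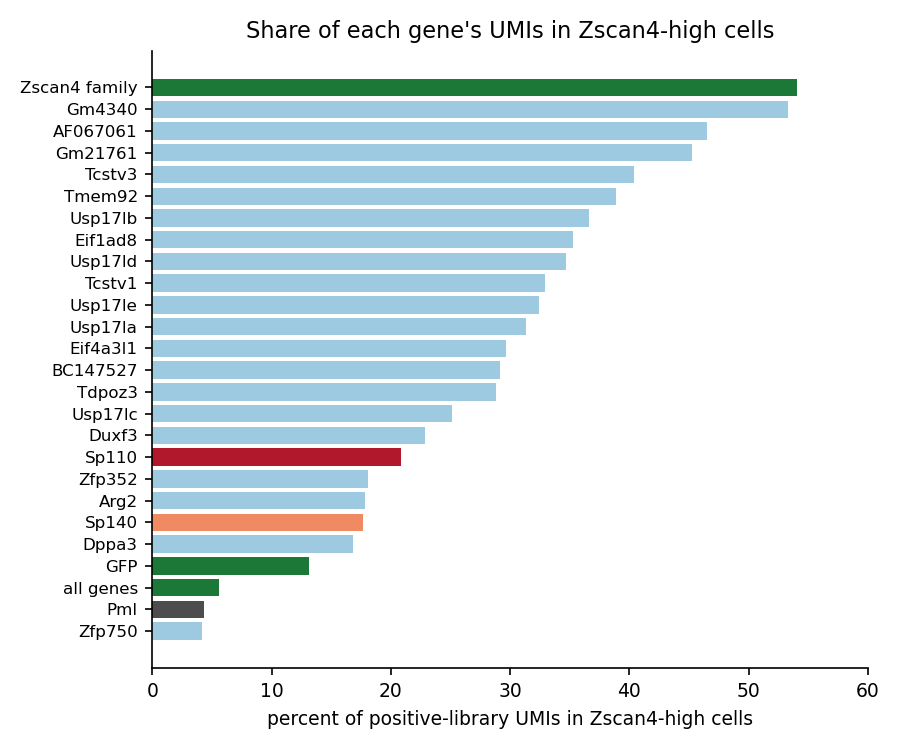
Percent of each gene's positive-library UMIs that lay in Zscan4-high cells (bars from 0), for the members, GFP, the Zscan4 family, all genes and the listed 2C genes. UMIs were counted over the 4402 cells deep enough to be thinned. Sp110 at 20.9% and Sp140 at 17.7% lie below most 2C genes and above GFP at 13.1%, and Pml at 4.32% lies just below the 5.62% of all genes.

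Sp140 and Sp110 differed in cells with endoderm transcripts. Primitive endoderm is the extraembryonic lineage that embryonic stem cultures can form, and its 10 markers summed to 717 CPM in the positive and 304 CPM in the negative library, with 10 of 10 above 50 UMIs and 0 of 7 judged past the size rule. Cells were split, after the data were seen, by 5 or more thinned UMIs of 7 endoderm genes (Gata6, Gata4, Sox17, Pdgfra, Dab2, Foxa2 and Sox7). In the positive library 455 cells passed, and Sp140 stood at 161 CPM in them and 49.96 CPM in the other 3947 cells, a ratio of 3.23 (3.07 to 3.38). Sp110 stood at 121 and 71.2 CPM, a ratio of 1.70 (1.61 to 1.79). Pml stood at 10.8 and 22.6 CPM, a ratio of 0.477 (0.403 to 0.561). GFP was level, at 203 CPM in both, and Zscan4 was lower in the endoderm-gene cells, at 197 against 505 CPM.

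Among Zscan4-zero cells the split was wider. Sp140 stood at 95.1 CPM in 193 endoderm-gene cells and 15.4 CPM in 1264 others, a ratio of 6.16 (5.51 to 6.88). Sp110 stood at 71.2 and 22.6 CPM, a ratio of 3.15 (2.81 to 3.52). Of the 1431 Sp110 UMIs in Zscan4-zero cells, 1 cell held 230 and the 10 highest cells held 41.7%. The split without these cells was not run. Without endoderm-gene cells, Zscan4-high cells exceeded Zscan4-zero cells 12.6-fold for both Sp110 and Sp140. In the negative library the 206 endoderm-gene cells held 5 Sp140 UMIs and 2 Sp110 UMIs, or 0.581 and 0.232 CPM. Pml was lower in endoderm-gene cells there too, at 11.03 CPM against 27.0 CPM in the other 3618 cells.

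Sp100, the family member best known from nuclear bodies, was near the limit of detection. It had 14 UMIs in 13 cells of the positive library, or 0.101 CPM (0.0553 to 0.170). It had 0 UMIs in the negative library, where 3 UMIs would be 0.0192 CPM. Against that floor the positive library was at least 5.28-fold higher, and the 95% counting interval of the ratio itself began at 3.75. Thinned shares were 0.0682% of positive-library cells and 0 of 3824 cells of the negative library, where 3 cells would be 0.0785%. All 13 cells had a Zscan4 UMI before thinning, 6 had an Sp110 UMI and 5 had an Sp140 UMI. Of all positive-library cells, 90.5% had a Zscan4 UMI, 45.5% an Sp110 UMI and 39.0% an Sp140 UMI, so the cells with Sp100 were near the shares of any cells. By Zscan4 class it had 2, 9, 2 and 1 UMIs, so that only 1 fell in Zscan4-high cells. No order of Sp100 across the classes was detectable at this depth.

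In the negative library the few UMIs of Sp110 and Sp140 were spread singly over cells. The 16 Sp110 UMIs lay in 15 cells, of which 1 had a Zscan4 UMI and 1 a GFP UMI. The 45 Sp140 UMIs lay in 43 cells, of which 1 had a Zscan4 UMI and 2 a GFP UMI. The highest cell had 2 UMIs of either gene, and 1 cell had both genes. No class of negative-library cells with Zscan4 or GFP reached 50 cells, so the classes of the positive library have no counterpart there.

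None of Pml's listed partners in nuclear bodies passed the size rule. Of 30 listed components, 29 could be judged in each comparison, and 0 were past the size rule in either direction. Over all genes 3% and 4.77% were called higher, so that a count of 0 among 29 is near the background. Their median log2 ratio was 0.07 between the libraries and -0.24 between Zscan4-high and Zscan4-zero cells, near the medians of all judged genes. Sumo2, one of the modifiers that hold the bodies together, differed most between libraries, at 907 against 1530 CPM. Crebbp, an acetyltransferase found in the bodies, was at 56.4 against 40.2 CPM. Between Zscan4 classes Trp53, the p53 tumour suppressor, was at 121 CPM in Zscan4-high and 257 CPM in Zscan4-zero cells. Asf1a, a histone chaperone, ran the other way at 141 against 70.8 CPM.

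Of the listed interferon-stimulated genes, 27 were in the features. Between the libraries 7 of them could be judged and between the Zscan4 classes 8, and 0 were past the size rule in either comparison. Over all genes 3% and 4.77% were called higher, so that a count of 0 among so few is near the background. Their median log2 ratios were 0.06 and -0.32. Stat2, a transcription factor downstream of the type I interferon receptor, was at 16.2 against 6.85 CPM between the libraries and 23.8 against 12.5 CPM between Zscan4-high and Zscan4-zero cells. Ddx58, which encodes the RNA sensor RIG-I, was lower in both, at 9.46 against 14.5 CPM and 3.52 against 12.8 CPM. Isg15, a ubiquitin-like protein strongly induced by interferon, had 20 and 3 UMIs. Some sparse genes of the list that could not be judged had higher ratios between the libraries. Irf7, a transcription factor of the interferon response, had 36 and 4 UMIs, a ratio of 10.2 (3.65 to 39.4). Ifih1, which encodes the RNA sensor MDA5, had 31 and 2 UMIs, and Mx1, an antiviral GTPase, had 57 and 11. Among 8 interferon receptors, ligands and kinases, Ifnb1 had 0 UMIs in both libraries and Ifng had 24 and 4. Of the 8, 2 could be judged between the libraries and 3 between the classes, and 0 were past the rule. Ifnar1, a receptor chain for type I interferon, was at 9.35 against 8.03 CPM.

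Sp110 and Sp140 are known for roles in immune cells, and the summed level of immune markers did not rise with them. The 10 listed immune markers summed to 27.8 CPM in the positive and 32.3 CPM in the negative library, and to 17.3 CPM in Zscan4-high and 32.6 CPM in Zscan4-zero cells. Of the 6 with at least 50 UMIs over both libraries, 5 were lower in the positive library and 1 was higher. The higher one was Cd68, at 8.77 against 6.57 CPM. Ptprc, the pan-leukocyte gene for CD45, had 8 UMIs in the positive library, 0 in the negative library and 0 in Zscan4-high cells. Of the 10 markers, 1 could be judged and 0 were past the size rule in either comparison. Fibroblast markers, which feeder cells would carry, summed to 16.4 against 3.67 CPM between the libraries, with 4 of 8 above 50 UMIs and all 4 of these higher in the positive library (Col1a2 at 1.67 against 0.134 CPM). None was abundant enough to be judged by the size rule between the libraries. Between Zscan4-high and Zscan4-zero cells the fibroblast sum was 22.7 against 12.6 CPM. There 3 of the 4 with at least 50 UMIs were higher and 1 was lower. Thy1, the 1 gene judged there, was at 13.3 against 6.69 CPM and not past the rule. Trophoblast markers summed to 97.0 against 58.9 CPM, with 1 of 3 judged past the rule (Krt18, a keratin, at 36.7 against 8.13 CPM). Tfap2c, a trophoblast transcription factor that was also judged, was at 18.4 against 39.5 CPM. Between Zscan4-high and Zscan4-zero cells the trophoblast sum was 54.7 against 108 CPM. The part of these cells in the members' values was not tested. Of the 4 other genes with a SAND domain 1 could be judged, and it was not past the rule. This gene, Gmeb1, was at 58.8 against 55.8 CPM, and Aire, the regulator of self-antigens in the thymus, was at 3.796 against 8.86 CPM between the libraries.

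The 2C genes apart from the members did follow the same direction. Of this list, 15 of 15 judged genes were higher in the positive library and 16 of 16 in Zscan4-high cells. The reporter and Zscan4 classes select for this state, so these counts describe the cells and are no independent evidence. Among the copies related to Sp100 and Sp140, the only gene judged was BC147527, on chromosome 13 at 120300392 to 120308779. It had 35.7 CPM in the positive library and 0.00639 CPM (1 UMI) in the negative library.

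Genes with at least 50 UMIs on either side of Sp140 differed in the size of their ratios between the libraries. Within 500 kb of the family genes 41 features were annotated, of which 17 had at least 50 UMIs. Of these 17, 5 had a log2 ratio of CPM + 1 of 2 or more. Sp110, Sp140 and Gm16026, which shares sequence with Sp110, were among the 5. The share over all genes with at least 50 UMIs was not computed. By the size rule, which also asks 10 CPM, 3% of 8042 genes were called higher. The 10 up to and including Sp140 were all higher in the positive library. None of the 10 had more than 45 UMIs in the negative library, so each reached 50 UMIs only through the positive library. Their shared direction is therefore in part a product of the filter. The 4 of them with 0 UMIs in the negative library were at least 22.2-fold to 110-fold higher, and the other 6 were higher by 88.5-fold or more. Among these 10 were C130026I21Rik at 13.4 against 0.0959 CPM and A530040E14Rik at 9.42 against 0.0128 CPM. A530032D15Rik, an Sp140-related gene, was at 2.26 against 0.0256 CPM. Beyond Sp140, and beyond the sparse Sp100, 7 genes had ratios of 1.05 to 2.47, so these too were all higher in the positive library. The largest was that of Cab39, a scaffold of the LKB1 kinase, at 123 against 49.9 CPM. Psmd1, a proteasome subunit, was at 315 against 301 CPM. Several of the other genes up to Sp140 share sequence with Sp110 or Sp140, so their values are not independent of each other.

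**Figure D5:**
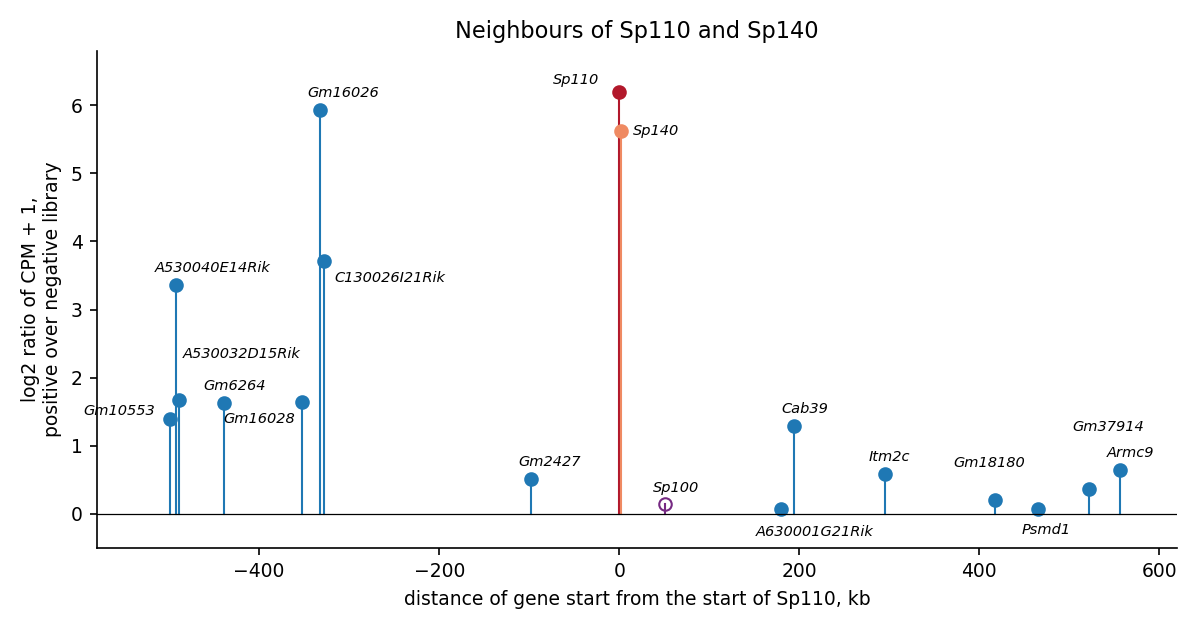
Log2 ratio of CPM + 1 between the positive and negative libraries (vertical axis) against the distance of each gene's start from the start of Sp110 in kb, for genes with at least 50 UMIs; the open point is Sp100, which has 14. Ratios are above 0 for every gene drawn, with Sp110 at 6.19 and Sp140 at 5.63. Beyond Sp140, Cab39 is the highest. Genes on the Sp110 side reached 50 UMIs only through the positive library, so the filter in part sets their direction.

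Within the positive library the same genes up to Sp140 were also higher in Zscan4-high than in Zscan4-zero cells. Gm16026 was at 231 CPM in Zscan4-high and 22.9 CPM in Zscan4-zero cells, and A530040E14Rik at 37.0 against 3.21 CPM. C130026I21Rik was at 41.7 against 6.39 CPM. Beyond Sp140, Cab39 was at 270 against 88.3 CPM, while Psmd1 was at 256 against 326 CPM.

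The genes most like Sp110 across positive-library cells were Gm16026 (r of 0.74), Eif4a3l1 (0.66), Gm44739 (0.65), Gm21818 (0.63) and Gm13228 (0.62), over 4402 thinned cells and 14290 genes. For Sp140 they were Gm16026 (0.63), Lmx1a (0.60), Scamp1 (0.59), Gm13228 (0.58) and Sp110 (0.57). Gm16026 led both, and it shares much of its sequence with Sp110. Lmx1a, a homeobox gene, was at 105 CPM in the positive and 0.102 CPM in the negative library. Scamp1, a membrane trafficking gene, was at 222 against 4.32 CPM. For Pml the most like gene reached only r of 0.14. All these cells come from 1 library and share its range of depth and state, so the values are descriptions with no test.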

How the data were processed

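The deposited matrices hold unnormalized counts, 1 for each gene in each cell, read here as UMIs from the single-cell library source in the labels and the barcodes of 16 bases. Per the submitters' processing notes, FastQC 0.11.2, Trim Galore 0.6.4, STAR 2.7.6a and mm10 were used. Counting, strand use, multiple matches, cell calling and annotation are not given in the sources used here, and the extraction text in the labels describes kits of the kind used for bulk RNA. Of the features, 94.1% had an identifier in GENCODE vM21.

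Cells were kept with at least 1000 UMIs, 500 genes and at most 20% mitochondrial UMIs, which removed 7 and 0 cells; doublets were not removed. Counts were summed and scaled to CPM over all genes, and log2 ratios use CPM + 1. Thinning to 10000 UMIs (without replacement) left out 194 and 8 shallower cells. Intervals are exact Poisson, Clopper-Pearson and conditional binomial at 95%, and a count of 0 is given a floor of 3 UMIs. With 1 library per group there was no test. The named genes are the members, the 5 genes most correlated with each member where r was at least 0.3, and up to 4 genes per list with the largest ratios; Isg15, Ifng, Ifnb1, Ifnar1, Ptprc, Irf7, Ifih1, the neighbours and the endoderm genes were named outside that rule after their values were seen. Some genes that the rule names are not reported here. The members and lists were chosen with earlier results of these data known. Simulated Poisson counts with 200 of 55415 genes changed 8-fold between the libraries gave 200 calls and 0 false ones. The changed genes were well expressed and no other difference between libraries was simulated. This checks only that the rule runs, and gives no error rate for these data. The tools were edgeR 4.0.16 (TMM factors only) in R 4.3.3, and numpy 2.4.6, matplotlib 3.10.9, scipy 1.17.1 and pandas 2.3.3 in Python 3.11.15.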

Additional observations from a re-analysis of the deposited data

How the results depend on the processing

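Every alternative kept the direction of the Sp110, Sp140 and Pml ratios. Between the libraries, 21 of 40 values stayed within their counting interval and 19 did not. For Sp110 and Sp140 the log2 ratios were 6.04 and 5.45 with TMM, 6.04 and 5.45 with median of ratios, 6.56 and 5.93 outside ribosomal protein and mitochondrial genes, 6.61 and 5.89 in cells thinned to 10000 UMIs, 6.70 and 5.96 as a mean over cells of their own CPM, and 8.62 and 7.34 with a pseudocount of 0.1. Pml was at -0.56 with TMM, -0.56 with median of ratios and -0.39 in thinned cells, and Sp100 at 1.01 with the pseudocount of 0.1, against 0.14. In cells of 20000 to 40000 UMIs, an alternative chosen after seeing the data, Sp110, Sp140 and Pml were at 5.95, 5.46 and -0.38. TMM moved the median of all genes from 0.14 to -0.14.

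Between Zscan4 classes, 40 of 56 values stayed within their interval and 16 did not. Sp110 and Sp140 were at 3.08 and 2.64 with the high class from 10 Zscan4 UMIs, 3.07 and 2.56 with thinning to 5000, 3.55 and 3.05 when classed by GFP, and 3.07 and 2.68 as a mean over cells of their own CPM. Pml was at -0.25 with the high class from 40 UMIs. Of the alternatives added after seeing the data, cells of 15000 to 30000 UMIs gave 1.94 and 2.05, which ends the size-rule call of Sp110 unless the cell with the most Sp110 UMIs is left out (2.37 and 2.20), cells without endoderm genes 3.60 and 3.57, and leaving out that cell at all depths 3.49 for Sp110. The cause of these shifts was not tested.

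Genes past the size rule between the libraries numbered 241 higher and 1 lower. A ratio of at least 2 gave 564 and 80, TMM and median of ratios each gave 9 lower, and no filter gave 2 lower. Between Zscan4 classes a ratio of at least 2 gave 936 higher and 567 lower, against 406 and 34. Of 32 shares of cells 12 moved, all with thinning to 5000 UMIs or none. No paired analysis was possible because there is only 1 library in a group. Depth limits Sp100, whose 14 UMIs allow no order across classes.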
